A study of Mus musculus with 30 samples.

Results

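The occupancy of CTCF and RAD21 was described around 9 regulators of neural tube patterning: Sox2, Pax6, Irx3, Dbx1, Nkx6-1, Olig2, Nkx2-2, Neurog1 and Neurog2. The regions were every peak within 20 kb of these gene bodies on the mm10 mouse genome, in the peak lists of 30 libraries. They came to 706 of 1352462 peaks, or 5.22 per 10000. The peaks were taken by their position near named genes and not by a measured value, although the gene list was set with earlier results of these data known.

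CTCF is a zinc-finger protein that binds DNA at a long motif and marks many loop anchors, and RAD21 is a subunit of cohesin, the ring complex that extrudes chromatin loops and is halted at CTCF sites. Both were mapped by ChIPmentation, a chromatin immunoprecipitation in which Tn5 transposase adds the sequencing adapters while the chromatin is on the beads, in the trunk of E10.5 embryos of the B6CBAF1 strain. The mutants were homozygous for 6 alleles in which CTCF binding sites (CBS) of the Hoxd cluster had been mutated on the same chromosome, and were collected from crosses of heterozygous parents and dissociated embryo by embryo. CTCF libraries numbered 3 for Del(CBS1), 1 for Del(CBS2), 1 for Del(CBS1-2), 2 each for Del(CBS1-3), Del(CBS1-4) and Del(CBS1-5), and 3 for wild-type (WT) littermates. RAD21 libraries numbered 3 for Del(CBS1), 1 for Del(CBS2), 2 for each of the 4 alleles with several sites mutated, and 4 for WT. None of the 9 genes was targeted by the alleles. The trunk holds many tissues beside the neural tube, and the lists measure no expression, so the tissue label could not be checked with marker genes, and a peak cannot be placed in a cell type.

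In the developing spinal cord, Sonic hedgehog from the ventral midline and BMP and Wnt signals from the dorsal side set up bands of progenitors along the dorsoventral axis. Each band is defined by transcription factors that repress the genes of the neighbouring bands: Pax6, Irx3 and Dbx1 are turned off by strong hedgehog signalling, and Nkx6-1, Olig2 and Nkx2-2 depend on it. Sox2 keeps cells as neural progenitors, whereas Neurog1 and Neurog2 are proneural factors that drive them to become neurons.

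The genotype labels were compared with the peaks in the targeted cluster. From Hoxd13 to Hoxd1 (chromosome 2), 7 CTCF sites were present in every WT library. They were chosen for being complete in WT, so mutants could only have as many or fewer. How often such sites elsewhere in the genome lack a peak in a mutant library was not counted. Of the 7 sites the Del(CBS1-5) libraries had 3 and 2, Del(CBS1-4) 3 and 4, and Del(CBS1-3) 6 and 4. Each library of Del(CBS1), Del(CBS2) and Del(CBS1-2) had 6. Of 5 such RAD21 sites the Del(CBS1-5) libraries had 2 and 1, Del(CBS1-4) 2 and 3, and the other mutants 3 or 4. The CTCF counts do not tell Del(CBS1), Del(CBS2), Del(CBS1-2) and Del(CBS1-3) replicate 1 apart. Replicate 1 of Del(CBS1-4) and of Del(CBS1-5) had equal counts, 3 for CTCF and 2 for RAD21. Replicate 2 of Del(CBS1-3) and of Del(CBS1-4) did too, 4 for CTCF and 3 for RAD21. The genotype labels therefore rest on the submitters. The CTCF lists held 40011 to 88323 peaks in mutants and 52925 to 75027 in WT, and the RAD21 lists 16676 to 48102 and 22449 to 39841. Read counts are not part of the lists; depth is therefore unknown and counting intervals could not be set. Libraries were treated as separate embryos, and where a list had no peak the site counts as not detected in that library.

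A site was a group of summits, from all libraries of an antibody, linked within 150 bp, whose median summit was covered by a peak in 2 or more libraries. Strength was expressed as a percentile: the share of the sites found in every library of that antibody (32093 for CTCF, 12987 for RAD21) whose fold enrichment in the same library was no higher, with 0 for no peak. Over all sites of the genome the median of a site's median percentile was 1.84 for CTCF and 0.196 for RAD21. Weak, moderate and strong below therefore refer to the sites found in every library and not to all sites. The fold enrichments themselves are the authors' values, relative to the local background of each library.

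Around the 9 genes there were 56 CTCF sites, of which 23 were found in all 14 CTCF libraries, and 28 RAD21 sites, of which 8 were found in all 16 RAD21 libraries. Their own summits were present in 2 or more libraries for 47 CTCF and 25 RAD21 sites. The others lay in the flank of a wider peak and are described only where named, but they stay in the counts, medians and tests. The 11 mutant CTCF lists had 27 to 40 peaks near the genes (median 33), against 31, 33 and 37 in WT. The 12 mutant RAD21 lists had 10 to 21 (median 16), against 12, 14, 16 and 16 in WT. The ranges overlapped for both antibodies. Sox2 and Nkx2-2 had the most CTCF sites, 9 each, and Pax6 and Irx3 the fewest, 4 each. Counting only sites with own summits in 2 or more libraries, Sox2 and Nkx2-2 had 7 each and Irx3 had 3. Pax6, Olig2 and Nkx6-1 then had 4 each. Over 21887 protein-coding genes the median was 5 CTCF and 3 RAD21 sites within 20 kb of the gene body, and 15.2% of them had no CTCF site. The 9 genes had medians of 6 and 3. The window grows with gene length. Per 100 kb of window the medians were 13.2 CTCF and 6.95 RAD21 sites for the 9 genes, against 6.46 and 3.60 over protein-coding genes. This difference was not tested.

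**Figure D1:**
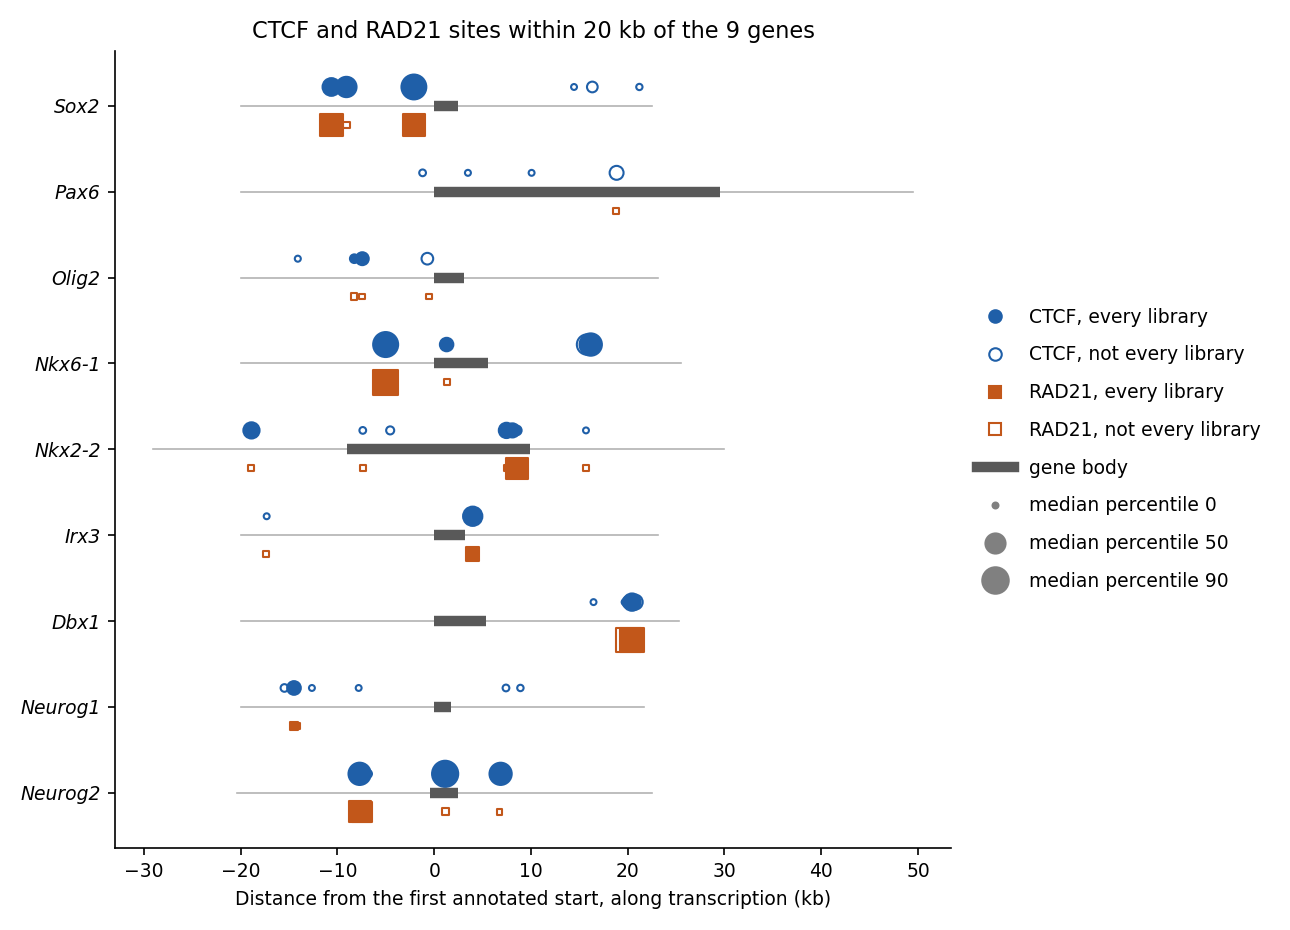
Sites within 20 kb of each gene by distance from the first annotated start, in kb along transcription; circles above each line are CTCF, squares below it RAD21, filled where every library of the antibody had a peak, and larger symbols have a higher median percentile. The grey line spans the gene body and 20 kb to each side. Sites whose own summit was present in fewer than 2 libraries are not drawn. Large symbols lie upstream of Sox2, Nkx6-1 and Neurog2, downstream of Dbx1 and within Neurog2, and Pax6 has open symbols alone.

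Peaks over the gene starts were counted and set against those over all promoters. The promoter window, from 250 bases before to 50 bases after an annotated start, was read from RefSeq (GRCm38.p6, the mm10 assembly) for the 10 annotated starts of the 9 genes, Pax6 having 2. A CTCF peak overlapped the Olig2 window in 2 of 14 libraries and the Neurog1 window in 1 of 14, and no RAD21 peak overlapped any of the 10 windows. Over 32851 RefSeq promoter windows, 25.4% had a CTCF peak in any library and 5.70% in every library, and for RAD21 the shares were 28.4% and 1.56%. Beside Irx3, by contrast, the promoter window of Gm39222, an RNA gene transcribed away from the Irx3 end, was covered by a CTCF peak in 14 of 14 libraries and by a RAD21 peak in 16 of 16. The sequences of these 3 windows are printed because they set a promoter that CTCF covers in every library beside 2 that it rarely covers. They run 5′ to 3′ along each gene's strand, and capitals mark matches to a short core of the CTCF motif, CC, any 3 bases, AG, any base and GG, which was chosen after the sequences were seen. The windows are mm10 chr8:91797694-91797993 (minus strand) for Gm39222, chr16:91225300-91225599 (plus strand) for Olig2 and chr13:56252131-56252430 (minus strand) for Neurog1.
Gm39222: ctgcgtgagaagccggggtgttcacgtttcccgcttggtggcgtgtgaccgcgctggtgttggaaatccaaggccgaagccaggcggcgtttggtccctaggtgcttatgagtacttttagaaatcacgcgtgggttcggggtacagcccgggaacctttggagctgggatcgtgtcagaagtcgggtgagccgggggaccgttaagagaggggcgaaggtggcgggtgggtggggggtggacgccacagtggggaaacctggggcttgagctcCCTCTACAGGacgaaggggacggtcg
Olig2: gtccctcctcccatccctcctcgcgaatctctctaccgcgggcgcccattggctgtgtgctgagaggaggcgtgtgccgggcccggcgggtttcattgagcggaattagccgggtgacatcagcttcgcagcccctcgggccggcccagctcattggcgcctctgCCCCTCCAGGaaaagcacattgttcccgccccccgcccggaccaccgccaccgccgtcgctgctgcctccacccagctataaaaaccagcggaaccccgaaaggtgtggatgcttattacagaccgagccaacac
Neurog1: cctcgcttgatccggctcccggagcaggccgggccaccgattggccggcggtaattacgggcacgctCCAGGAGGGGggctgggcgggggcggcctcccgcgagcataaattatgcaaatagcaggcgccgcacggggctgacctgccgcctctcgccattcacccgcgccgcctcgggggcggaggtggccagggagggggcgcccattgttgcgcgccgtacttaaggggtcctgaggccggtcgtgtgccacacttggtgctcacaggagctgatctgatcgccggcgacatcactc

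The match in Gm39222 reads CCTGTAGAGG on the opposite strand, lies 37 bp from the median CTCF summit at 91797673 and overlaps no second match. That in Olig2 reads CCTGGAGGGG on the opposite strand, and that in Neurog1 reads CCAGGAGGGG as printed. The median summits of the nearest CTCF sites, each found in 2 or more libraries, were 621 and 7592 bp away. Summits of single libraries, such as the 1 with a peak over the Neurog1 window, do not enter these distances. A match was therefore present in windows with a peak in 14, 2 and 1 of the 14 libraries, and 1 Pax6 window had a match and no peak. Searched on both strands, this short core occurred in 22.1% of all promoter windows and in 49.4% of the 1871 with a CTCF peak in every library. A longer form, CCA, any 2 bases, AG, any 2 bases and GGC, occurred in 2.43% and 13.4% of these, and in 0 of the 10 windows of the 9 genes.

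Sox2, the progenitor factor, had its strongest sites upstream, within the span of the overlapping RNA gene Sox2ot. The CTCF site 2099 bp before the start (chromosome 3, 34647896) had percentiles of 51.4, 78.7 and 89.9 (lowest, median and highest of 11 mutant libraries), against 79.2, 91.9 and 70.3 in the 3 WT libraries. RAD21 at the same place (34647919) had 36.3, 64.1 and 84.1 in 12 mutant libraries, against 64.4, 49.7, 45.5 and 60.9 in WT. Both antibodies thus ranked this site, in most libraries, above the middle of the genome's sites found in every library, with overlapping groups. At 10623 bp upstream (34639372) CTCF was weaker, with 19.4, 37.1 and 51.9 in mutants against 29.9, 49.3 and 44.6 in WT. RAD21 at that summit had 26.9, 56.3 and 88.7 in mutants against 72.5, 68.0, 65.2 and 61.4 in WT, so most but not all mutant libraries lay below WT. The third site, 9076 bp upstream (34640919), had the reverse order: CTCF had 40.5, 51.9 and 64.9 in mutants against 50.5, 54.6 and 39.6 in WT, whereas RAD21 was detected in 9 of 12 mutant and 4 of 4 WT libraries and reached at most percentile 3.3 in mutants and 1.51 in WT.

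Among the factors that hedgehog signalling turns off, Pax6 had no site found in every library. Its best CTCF site lay in the gene body, 5283 bp after the nearer start (chromosome 2, 105687746), with percentiles of 0, 12.7 and 52.4 in mutants against 29.8, 33.6 and 43.9 in WT. It was found in 10 of 11 mutant and 3 of 3 WT libraries, and the pooled mutant range contained the WT values. By allele, the Del(CBS1) libraries had 12.7, 5.9 and 0 and the Del(CBS1-4) libraries 6.6 and 10.996, all below WT, whereas Del(CBS1-5) had 35.5 and 24.5. The highest mutant value, 52.4, belonged to an allele not listed here. How many of the genome's sites lie wholly below WT in Del(CBS1) or Del(CBS1-4) was not counted, so this carries no weight as a result. This site lacked a peak in 1 library, so its rank could not be fitted and these differences were not tested. RAD21 there was found in 1 of 12 mutant and 2 of 4 WT libraries, at a percentile of at most 0.5. The CTCF site nearest a Pax6 start lay 1199 bp before it and ranked no higher than percentile 6.4 in mutants and 3.4 in WT.

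Irx3, an Iroquois homeobox factor, had its shared CTCF and RAD21 site 3981 bp after its start and 838 bp beyond its end (chromosome 8, 91797673), the site that overlaps the Gm39222 promoter. CTCF had percentiles of 22.4, 48.2 and 66.2 in mutants against 52.7, 36.6 and 41.5 in WT. RAD21 (91797669) had 11.9, 18.8 and 74.9 in mutants against 39.3, 8.3, 23.1 and 43.0 in WT. The groups overlapped. The RAD21 minus the CTCF median percentile was -26.0, and 49.2% of the genome's shared sites had a difference as low. Upstream of Irx3 the remaining sites were found in at most 4 CTCF and 3 RAD21 libraries.

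Dbx1, which marks progenitors of the intermediate cord, had its strong site 20441 bp after the start and 15105 bp beyond the gene's end (chromosome 7, 49616394). CTCF there had percentiles of 18.7, 38.5 and 64.1 in mutants against 27.2, 33.7 and 27.6 in WT. RAD21 (49616399) had 59.4, 76.4 and 96.5 in mutants against 84.9, 76.1, 74.1 and 80.1 in WT. RAD21 therefore ranked high where CTCF was moderate, in both groups. A second CTCF summit group beside it (49616744) was often covered by the same wide peak and is not independent of the first.

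Of the factors that depend on hedgehog signalling, Nkx6-1 had the site with the highest RAD21 median of the whole set, and the second highest CTCF median, 5017 bp before its start (chromosome 5, 101669728). CTCF had percentiles of 49.6, 78.8 and 93.8 in mutants against 63.6, 91.1 and 82.7 in WT, and RAD21 (101669729) had 69.6, 83.8 and 95.7 in mutants against 78.8, 82.4, 90.4 and 80.0 in WT. The lowest mutant CTCF values were those of the Del(CBS1-5) libraries, 50.4 and 49.6. On the other side, 16177 bp after the start (101648534), CTCF had 33.9, 59.1 and 70.8 in mutants against 75.5, 68.6 and 66.4 in WT, again in all 14 libraries. The nearest RAD21 site to that position lay 14883 bp away. The site nearest the start, 1283 bp inside the gene (101663428), was moderate for CTCF (4.1 to 53.6 in mutants and 18.4 to 49.5 in WT) and had a RAD21 peak in 3 of 12 mutant and 1 of 4 WT libraries.

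Olig2, the motor neuron progenitor factor, had sites that ranked low against those found in every library. Its best CTCF site, 7430 bp upstream (chromosome 16, 91218120), had percentiles of 9.7, 20.4 and 39.3 in mutants against 32.4, 11.9 and 11.8 in WT, with RAD21 in 2 of 12 mutant and 0 of 4 WT libraries. The nearest, 706 bp upstream (91224844), had a CTCF peak in 10 of 11 mutant and 3 of 3 WT libraries, with percentiles of up to 26.7 in mutants and 19.0 in WT, and a RAD21 peak nearby in 3 of 12 mutant and 1 of 4 WT libraries. Groups overlapped at both.

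Nkx2-2, the factor of the most ventral of these bands, had a cluster of 3 CTCF sites 7467 to 8534 bp after its start, inside the annotated gene body (chromosome 2, 147177868 to 147178935). The weakest for CTCF, at 147177868, had percentiles of 3.0, 9.1 and 52.6 in mutants against 5.2, 18.8 and 2.2 in WT. RAD21 was strongest at this summit (147177838), with 20.5, 59.4 and 85.7 in mutants against 46.5, 55.6, 60.4 and 37.2 in WT. CTCF ranked higher at the neighbour 147178935, with 15.6, 29.0 and 46.5 in mutants against 21.7, 27.4 and 25.0 in WT, and RAD21 had a weak peak there in 9 of 12 mutant and 3 of 4 WT libraries. The 2 antibodies therefore ranked the sites of this cluster in different orders. The site with the highest CTCF median lay 18885 bp upstream of the start (147205287). The annotated gene body extends upstream of the start used here (147186402), to 147195434, and the site lay 9853 bp beyond it. CTCF there had 4.0, 32.5 and 40.3 in mutants against 4.7, 19.4 and 48.8 in WT, and RAD21 was found in 4 of 12 mutant and 1 of 4 WT libraries.

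Between the proneural genes, Neurog2 carried strong sites and Neurog1 did not. The strongest CTCF site of all 9 genes lay in the Neurog2 gene body, 1131 bp after the start (chromosome 3, 127634267), with percentiles of 71.6, 87.8 and 96.2 in mutants against 81.4, 91.9 and 89.9 in WT. RAD21 at the same place (127634283) was found in 11 of 12 mutant and 4 of 4 WT libraries but had only 0, 2.4 and 12.5 in mutants against 17.6, 0.4, 7.6 and 1.6 in WT. The highest-ranking RAD21 site of this gene lay 7691 bp upstream (127625445), with 13.7, 62.2 and 88.9 in mutants against 60.8, 50.1, 49.9 and 44.7 in WT. CTCF at that upstream site (127625431) had 43.5, 62.4 and 82.9 in mutants against 76.6, 36.5 and 64.5 in WT, below its rank in the gene body in most libraries. Downstream, 6863 bp after the start (127639999), CTCF had 31.2, 56.3 and 84.7 in mutants against 86.8, 76.4 and 63.7 in WT, and RAD21 was found in 2 of 12 mutant and 0 of 4 WT libraries. At 612 bp after the start a weak CTCF site was found in 3 of 11 mutant and 0 of 3 WT libraries (Fisher's exact p = 1.0), in 1 of them as the flank of the gene body peak. Neurog1 had 1 site found in every library, 14491 bp upstream (chromosome 13, 56266671), with CTCF at 8.8, 20.5 and 45.9 in mutants against 21.9, 20.6 and 12.8 in WT and RAD21 (56266630) at 0.9, 4.9 and 15.4 in mutants against 5.3, 2.7, 0.9 and 4.0 in WT. Its site nearest the start, 7418 bp away, ranked at most at percentile 8.1 in mutants and 1.9 in WT.

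**Figure D2:**
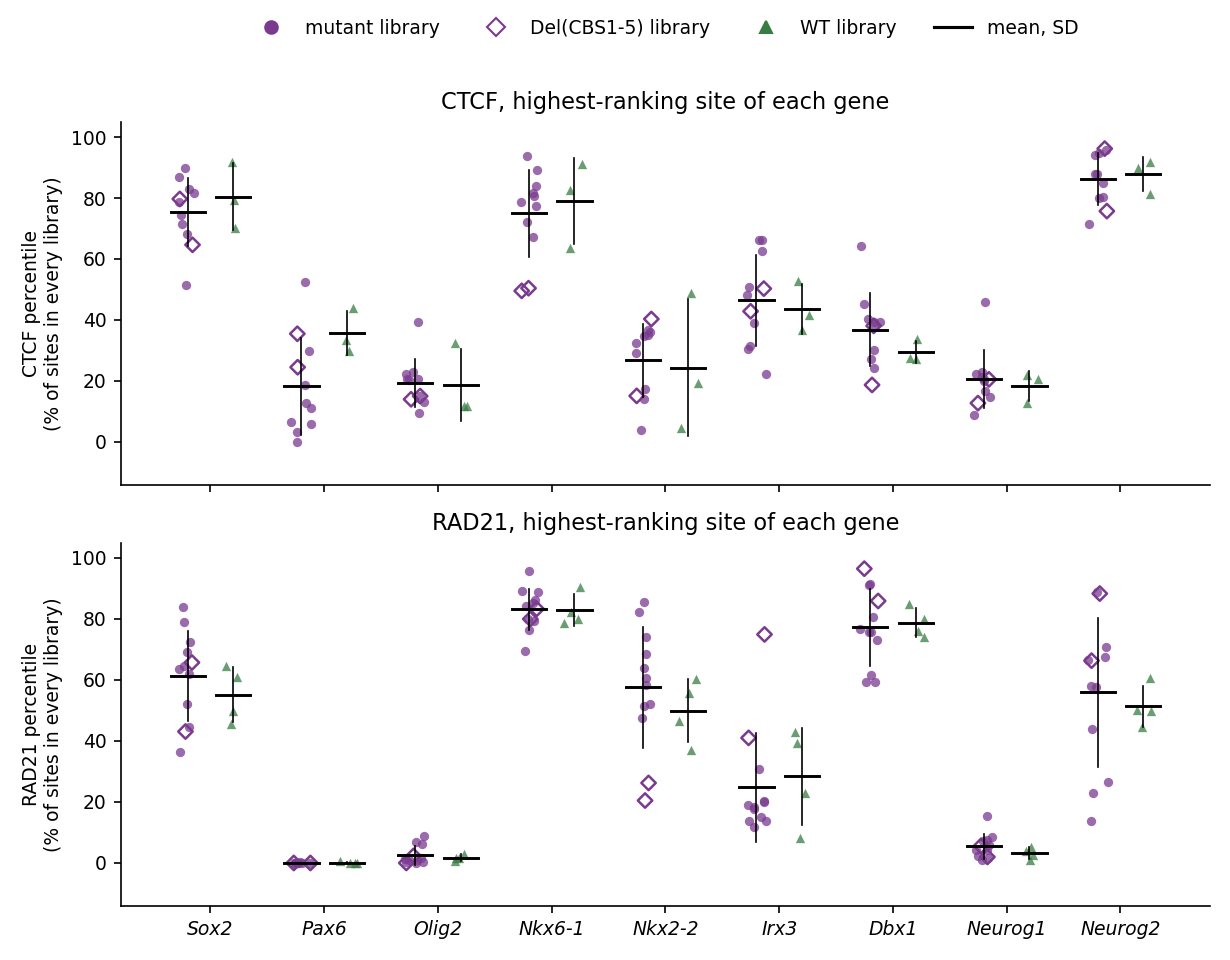
Percentile of the highest-ranking site of each gene in every library, CTCF above and RAD21 below; for each gene the mutant libraries (circles, with Del(CBS1-5) as open diamonds) stand left of the WT libraries (triangles), and black lines give mean and SD. Mutant and WT ranges overlap at each gene for both antibodies, and Pax6 RAD21 is near 0 in both groups; the 2 Del(CBS1-5) diamonds lie below WT for CTCF at Nkx6-1 and for RAD21 at Nkx2-2, and above WT for RAD21 at Dbx1 and Neurog2.

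The order of the genes by their highest-ranking site differed between the antibodies. For CTCF the medians over 14 libraries fell in the order Neurog2 (87.9), Nkx6-1 (79.7), Sox2 (79.0), Irx3 (45.6), Dbx1 (35.9), Nkx2-2 (30.8), Pax6 (21.6), Neurog1 (20.6) and Olig2 (17.8). For RAD21 over 16 libraries they fell in the order Nkx6-1 (82.8), Dbx1 (76.5), Sox2 (62.7), Neurog2 (58.0), Nkx2-2 (56.9), Irx3 (19.6), Neurog1 (4.19), Olig2 (1.49) and Pax6 (0). The medians pool mutant and WT libraries. For Pax6 CTCF averaged 18.2 ± 16.01 in mutants (SD, n = 11) and 35.8 ± 7.32 in WT (SD, n = 3), and in WT alone it stood above Dbx1 (29.5 ± 3.67) and Nkx2-2 (24.3 ± 22.5; SD, n = 3 each). Neighbours such as Nkx6-1 and Sox2 for CTCF (WT 79.1 ± 14.1 and 80.5 ± 10.9, SD, n = 3 each), or Neurog2 and Nkx2-2 for RAD21 (WT 51.4 ± 6.78 and 49.9 ± 10.3, SD, n = 4 each), differed by less than the spread between libraries. In authors' fold enrichment the median ran from 6.62 at Neurog1 to 13.6 at Neurog2 for CTCF, and from 3.27 at Pax6 to 12.3 at Nkx6-1 for RAD21 over the libraries with a peak.

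RAD21 and CTCF summits lay within 150 bp of each other at 25 of 56 CTCF sites (44.6%), against 41.6% of 96590 sites in the genome. Among CTCF sites found in every library the share was 19 of 23 (82.6%), against 85.6% in the genome; with sites in the flank of a wider peak left out, a filter chosen after seeing the data, it was 18 of 19 (94.7%), against 87.3%, so the share near the genes lay below the genome's or above it by that choice. The exception among the 19 was the Nkx6-1 site at 101648534. Of CTCF sites in every library with a median percentile between 50 and 75, 93.3% in the genome had a RAD21 site. Conversely, 25 of 28 RAD21 sites (89.3%) had a CTCF site, against 74.2% of 54206 in the genome.

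The ranks of both antibodies were set against each other at CTCF sites with a RAD21 site within 150 bp. At 4 of the 18 such sites near the genes RAD21 was found in 2 to 5 of its 16 libraries, so that its median was 0 and the difference is the CTCF percentile alone. The 2 scales differ. A CTCF percentile refers to the 32093 sites in every CTCF library, a RAD21 percentile to the 12987 in every RAD21 library. Over 27294 such CTCF sites of the genome found in every CTCF library, the median of RAD21 minus CTCF was -25.4 (5th to 95th percentile -72.1 to 12.1). Over the 18 sites near the 9 genes it was -17.1. Because of the scales, a difference is read against the genome's and not as a difference in binding strength. Spearman's rho across sites was 0.60 in the genome and 0.26 over the 18 sites, given as a description only, since sites share libraries and their ranks share depth and region. The following sites were chosen after their values were seen. The Neurog2 gene body had a difference of -85.5, and 1.34% of the genome's sites had a difference as low. Of the 4195 CTCF sites in the genome with a median percentile of at least 85, 361 (8.61%) had a RAD21 median under 5. At the other end, the difference was 60.2 and 40.5 at the overlapping Dbx1 sites, 49.0 at the Nkx2-2 site 147177868 and 24.9 at the Sox2 site 34639372, and 99.9%, 99.5%, 99.7% and 98.2% of the genome's sites had a difference no higher. The antibodies came from different libraries, so these are differences between medians over libraries and not within an embryo.

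**Figure D3:**
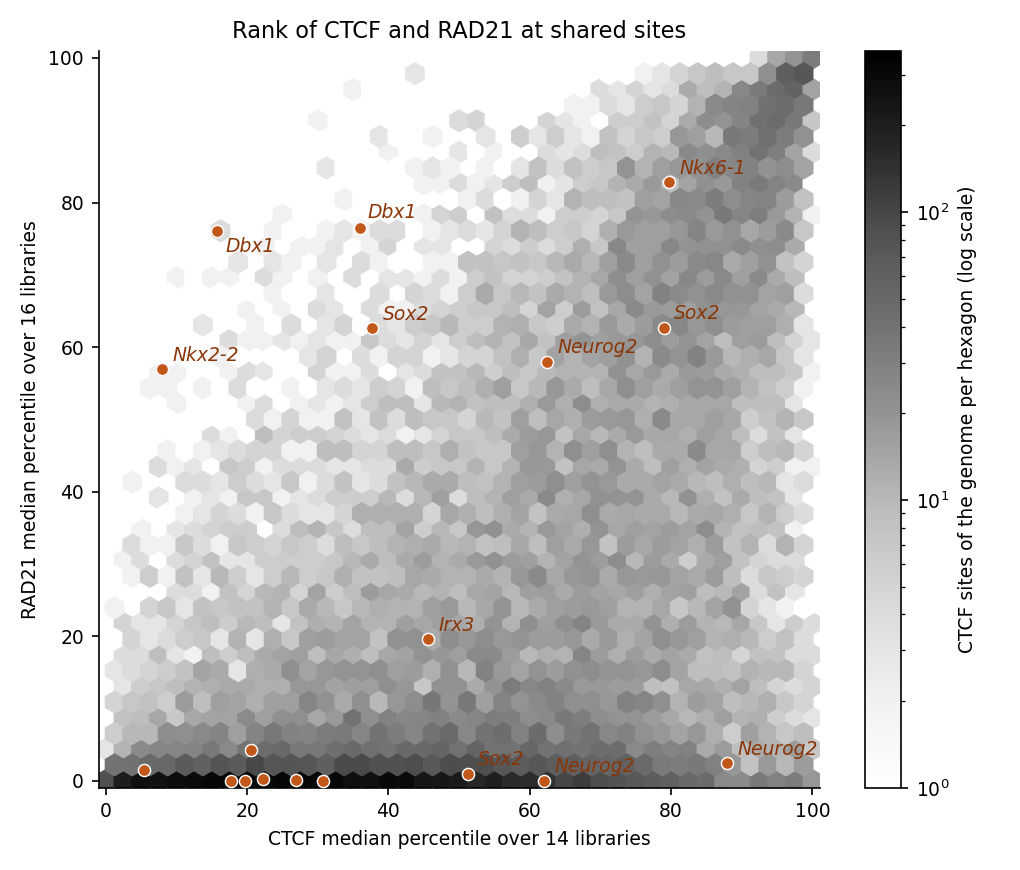
Median percentile of CTCF over 14 libraries (x axis) and of RAD21 over 16 libraries (y axis) at CTCF sites found in every CTCF library with a RAD21 site within 150 bp; grey hexagons count the 27294 sites of the genome on a log scale and points are the 18 sites near the 9 genes, named where either rank is high. Dbx1 and Nkx2-2 lie on the upper left with RAD21 above CTCF, and Neurog2 at the lower right has CTCF at 87.9 and RAD21 at 2.4.

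The alleles were then compared with WT at these genes, which lie on other chromosomes than Hoxd or, for Pax6 and Nkx2-2, elsewhere on chromosome 2. Ranks were turned into normal scores and fitted with limma over all sites found in every library, with Benjamini-Hochberg adjustment over all of them. A site was called at an adjusted p under 0.05. None of the 23 CTCF and 8 RAD21 sites of the 9 genes was called in any of the 4 contrasts. Of the 23, 19 had own summits in 2 or more libraries, and the rest largely repeat a neighbour's peak, so the 23 are not independent. Of the 32093 CTCF sites of the genome, the contrast of the mean of the 6 alleles with WT called 1 lower (0.00312%) and 0 higher (0%), and 1 of the 23 sites near the 9 genes (4.35%) and 805 of the genome (2.51%) had an unadjusted p under 0.05. Del(CBS1-5) against WT called 5 lower (0.0156%) and 0 higher (0%), with 1 of the 23 sites (4.35%) and 512 of the genome (1.60%) under 0.05 unadjusted. Del(CBS1) against WT called 0 in either direction (0%), with 1 of the 23 (4.35%) and 1672 sites of the genome (5.21%) under 0.05 unadjusted. The slope on how many sites were mutated called 1 lower (0.00312%) and 0 higher (0%), with 0 of the 23 and 807 of the genome (2.51%) under 0.05 unadjusted. For RAD21 over 12987 sites, the mean of the alleles called 0 in either direction (0%) and Del(CBS1-5) called 1 higher (0.0077%) and 5 lower (0.0385%). Del(CBS1) called 0 higher (0%) and 1 lower (0.0077%), and the trend 0 in either direction (0%). Near the 9 genes the RAD21 sites under 0.05 unadjusted numbered 0, 2, 2 and 0 of 8 in these 4 contrasts, where the genome had 510 (3.93%), 1244 (9.58%), 664 (5.11%) and 676 (5.21%).

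The median difference over the 23 CTCF sites was 0.05 normal-score units for the mean of the alleles (0.0020 over all sites), -0.04 for Del(CBS1-5) (-0.0027), 0.0048 for Del(CBS1) (0.017) and 0.0048 per mutated site for the trend (-5.0e-04). Over the 8 RAD21 sites it was 0.10 (-0.0033 over all sites), 0.24 (0.0067), -0.05 (-0.0018) and 0.02 (-9.8e-04). Values near the 9 genes lay on both sides of 0 in each contrast, with 14, 11, 13 and 12 of the 23 CTCF sites and 6, 5, 4 and 5 of the 8 RAD21 sites positive.

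Among the sites found in every library, which alone could be fitted, the largest differences were at Nkx6-1, Neurog2, Irx3 and Sox2, and none passed. For CTCF in Del(CBS1-5) it was the site 5017 bp upstream of Nkx6-1, with percentiles of 50.4 and 49.6 in Del(CBS1-5) against 63.6, 91.1 and 82.7 in WT, a difference of -0.88 ± 0.33 (SE; limma adjusted p = 1.0). The groups did not overlap there. The Sox2 site 9076 bp upstream did not overlap in the other direction, with 64.9 and 60.5 in Del(CBS1-5) against 50.5, 54.6 and 39.6 in WT. These were 1 CTCF site above and 2 below WT among the 23 (the second is the flank of the same Nkx6-1 peak), where 7.75% and 7.29% of the genome's sites lay wholly above or below. With all 11 mutant libraries pooled no CTCF site near the genes was wholly above or below WT (0.0935% and 0.0623% in the genome). For the mean of the alleles the largest CTCF difference was downstream of Neurog2 (127639999), at -0.50 ± 0.24 (SE; limma adjusted p = 1.0), with 57.0 ± 14.1 in mutants (SD, n = 11) and 75.7 ± 11.6 in WT (SD, n = 3). In Del(CBS1) it was -1.24 ± 0.65 (SE; limma adjusted p = 0.905) at 101669414, a flank of the Nkx6-1 peak with its own summit in 1 library, where the percentile ran from 1.79 to 72.1 in the 3 Del(CBS1) libraries. The largest slope, -0.10 ± 0.06 (SE; limma adjusted p = 1.0) per mutated site, was at another such flank, 101648249 beside Nkx6-1. The CTCF site under 0.05 unadjusted in Del(CBS1) was 49616744 downstream of Dbx1, at 0.84 ± 0.36 (SE, limma adjusted p = 0.905). In Del(CBS1-5) this site had the highest CTCF difference near the genes, 0.75 ± 0.41 (SE). It is often covered by the wide peak of its neighbour.

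For RAD21 the largest difference in Del(CBS1-5) was at Irx3 (91797669), with percentiles of 41.0 and 74.9 in Del(CBS1-5) against 39.3, 8.3, 23.1 and 43.0 in WT, a difference of 0.87 ± 0.38 (SE; limma adjusted p = 0.459). The 2 groups overlapped. At Nkx2-2 (147177838) RAD21 had 20.5 and 26.2 in Del(CBS1-5) against 46.5, 55.6, 60.4 and 37.2 in WT, the groups not overlapping, with a difference of -0.73 ± 0.34 (SE; limma adjusted p = 0.492). The sites upstream of Neurog2 (127625445; 66.3 and 88.3 in Del(CBS1-5)) and downstream of Dbx1 (49616399; 85.9 and 96.5) lay wholly above WT. That made 2 of 8 RAD21 sites above and 1 below, against 8.49% and 8.33% in the genome, and none with all 12 mutant libraries together (0.0231% in each direction). At Sox2, 10623 bp upstream, RAD21 gave the largest differences for Del(CBS1), -0.64 ± 0.29 (SE; limma adjusted p = 0.931), and for the mean of the alleles, -0.27 ± 0.23 (SE; limma adjusted p = 0.999). The 3 Del(CBS1) libraries had 63.8, 36.0 and 26.9 there against 61.4 to 72.5 in WT. At the Sox2 site 2099 bp upstream they had 69.3, 78.9 and 84.1 against 45.5 to 64.4 in WT (difference 0.64 ± 0.29, SE, limma adjusted p = 0.931). How many of the genome's RAD21 sites lie wholly above WT in Del(CBS1) was not counted, so this separation carries no weight as a result. The slope with the number of mutated sites was largest at Irx3, at 0.08 ± 0.07 (SE; limma adjusted p = 0.958).

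**Figure D4:**
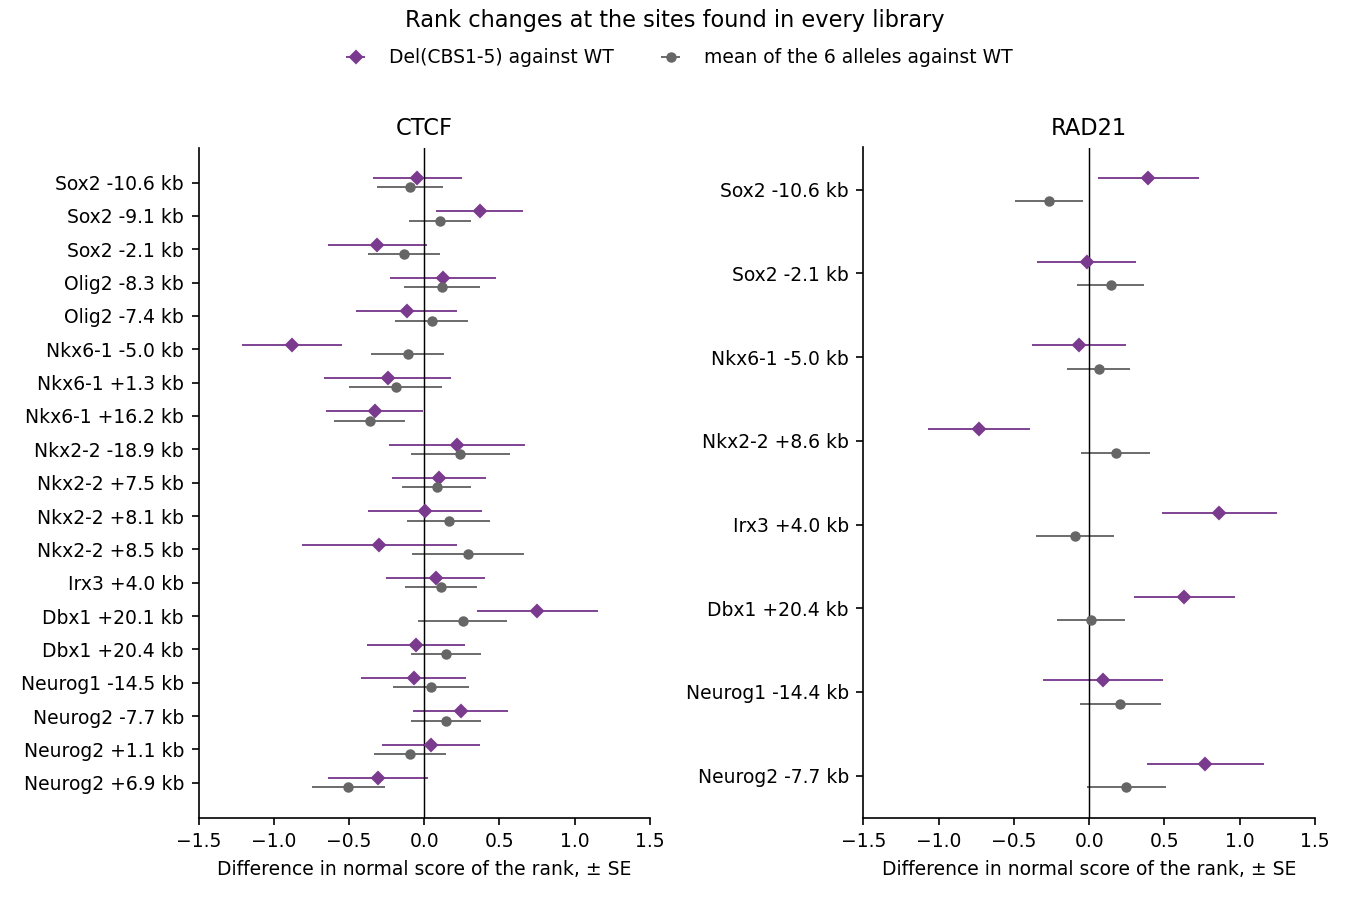
Difference in the normal score of the rank, with SE, at the sites found in every library with their own summits (19 CTCF, left; 8 RAD21, right); diamonds are Del(CBS1-5) against WT and circles the mean of the 6 alleles against WT, and site names give the distance from the gene's start in kb. The values scatter on both sides of 0, with the lowest Del(CBS1-5) value at Nkx6-1 for CTCF (-0.88) and at Nkx2-2 for RAD21 (-0.73).

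Sites that lacked a peak in some libraries were compared by detection. Fisher's exact test (2-sided) of mutant against WT libraries, adjusted over all sites, called 0 of the 56 CTCF and 0 of the 28 RAD21 sites near the genes, and 0 of the 96590 and 54206 sites of the genome (0% for each antibody). The smallest exact p near the genes was 0.176 for CTCF and 0.136 for RAD21, and 287 CTCF (0.297%) and 75 RAD21 sites (0.138%) of the genome were under 0.05 unadjusted, none of them near the genes. No CTCF site near the genes was found in all WT and no mutant libraries (0.00414% in the genome) or in all mutant and no WT libraries (0.00104%). The smallest p these group sizes allow is 0.00275 for CTCF and 5.49e-04 for RAD21, too large for a few changed sites to pass over so many tests, so these counts of 0 say little about detection.

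The wider pathway was represented by 48 further patterning and neuronal genes, such as Gli2, an effector of hedgehog signalling, Wnt1, a dorsal signal, and Pax2, a factor of interneurons. All 48 were found in the annotation, 46 had a CTCF site and 42 a RAD21 site within 20 kb, with a median of 4 CTCF and 2 RAD21 sites. In the 4 contrasts limma called none of their 98 CTCF and 28 RAD21 sites higher or lower, with medians of 0.03, -0.03, 0.03 and -0.0092 for CTCF and -0.0089, 0.16, 0.07 and 0.0042 for RAD21 for the mean of the alleles, Del(CBS1-5), Del(CBS1) and the trend. The largest values in Del(CBS1-5) were -0.81 ± 0.33 for CTCF at Gli2 (SE; limma adjusted p = 1.0) and 1.38 ± 0.44 for RAD21 at Pax2 (SE; limma adjusted p = 0.301). By the number of peaks within 20 kb over the 30 libraries, the listed gene most like each member was Prdm8 for Sox2 (mean absolute difference 0.667 peaks), Msx1 for Pax6 (0.633), Foxa2 for Irx3 (0.367), Lhx2 for Dbx1 (0.40), Gata3 for Nkx6-1 (0.367) and Olig2 (0.60), Pax2 for Nkx2-2 (1.03) and En1 for Neurog1 (0.667) and Neurog2 (0.633).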

How the data were processed

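The authors deposited a separate mm10 peak list for every library. The submitters' processing notes name MACS2 2.1.1.20160309 as the peak caller's package, Bowtie2 2.3.5, and bedtools 2.27.1, beside cutadapt 1.16, Picard 2.19.0 and SAMtools 1.9; their options are not given in the sources used here. Of the deposited columns, the ratio used here is the caller's fold enrichment at the summit relative to local background, and the deposited score and the -log10 of p and of q per peak were written by the caller. Because lists were called and scaled separately, folds were ranked within a library, and the percentile depends on which sites every list holds.

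Sites, percentiles and contrasts are defined in the report; limma 3.58.1 in R 4.3.3 used trend and robust fitting, with a term for each genotype, or a slope over 0 to 5 mutated sites; an unreplicated genotype borrows the spread of the rest. Gene spans came from RefSeq, and annotations of exons were not used here. Other steps used matplotlib 3.10.9, scipy 1.17.1, Python 3.11.15 with pandas 2.3.3, and numpy 2.4.6. The limma and Fisher steps were run on simulated data to check the code. The Fisher simulation held far fewer sites than the real tests, so it does not show what those could call. No pair of libraries was a duplicate (highest correlation of log fold 0.923).

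The 9 genes, the pathway list and the tests were chosen with earlier results of these data known. Sites were named by a rule: those within 1 kb of a start, the nearest, up to 4 of highest median percentile per gene, and the largest change per contrast. Alternatives were windows of 5 and 50 kb, a summit within 100 bp, any base within 250 bp, -log10 q of at least 10, linking within 300 bp, equal numbers of top peaks, sharing within 500 bp, ranks of -log10 p, centred log2 fold, limma without trend and robust fitting, the weakest 25% of sites left out, a replicate block, omission of each replicated library in turn and, chosen after seeing the data, sites with own summits in 2 or more libraries.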

Additional observations from a re-analysis of the deposited data

How the results depend on the processing

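The number of sites near the 9 genes depended on the window and the peak threshold: the 56 CTCF and 28 RAD21 sites became 20 and 12 within 5 kb, 31 and 15 with peaks of -log10 q of at least 10, and 13 for RAD21 with lists cut to an equal number of top peaks, and leaving out each library gave 53 to 57 CTCF and 27 to 29 RAD21 sites. The 44.6% of CTCF sites with a RAD21 site became 62.5% within 500 bp and 60.0% within 5 kb of the genes. No rank or detection test called a site near the genes under any alternative run (0 to 0 when leaving out each library, in all 4 contrasts and in detection). Genome-wide counts moved more: Del(CBS1-5) called 6 RAD21 sites, against 0 to 160 when libraries were left out (160 without Del(CBS1-5) replicate 1, and 0 without each of the 4 WT libraries in turn) and 0 to 14 otherwise, and 5 CTCF sites, against 4 to 15 (14 and 15 without Del(CBS1-5) replicates 1 and 2) and 0 to 8; Del(CBS1) called 0 CTCF sites, against 0 to 16 (16 without Del(CBS1) replicate 1) and 0 to 2, and 1 RAD21 site, against 1 to 2 and 0 to 1. The mean of the alleles called 1 CTCF site, against 0 to 5 and 0 to 1, and 0 RAD21 sites, against 0 to 1 and 0 to 0; the CTCF trend called 1, against 0 to 2 and 0 to 2, and the RAD21 trend 0 throughout. The 8 largest differences named in the report kept their direction under every alternative that held the site, except the RAD21 slope at Irx3, which became -0.0153 without Del(CBS1-5) replicate 2 (range -0.0153 to 0.117 when leaving out each library); the cause was not tested. Their sizes moved by over 1.5 times under some alternatives: RAD21 at Irx3 in Del(CBS1-5) ran from 0.39 to 1.31, at Sox2 from -0.42 to -0.12 for the mean of the alleles and from -0.89 to -0.30 in Del(CBS1), CTCF at Neurog2 from -0.69 to -0.21, and CTCF at Nkx6-1 from -1.14 to -0.39 in Del(CBS1-5), -1.70 to -0.58 in Del(CBS1) and -0.17 to -0.05 for the trend.

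The labels do not say whether a replicate number marks a shared litter or day. Same-numbered libraries had deviations correlated at -0.243 to 0.263 for CTCF and -0.188 to 0.275 for RAD21. Of 12 CTCF libraries 5, and of 15 RAD21 libraries 4, correlated best with their own number. The values to be had without pairing were not worked out, so these do not settle whether libraries were paired. With the replicate block 0 sites near the genes were called in any contrast, with smallest adjusted p-values from limma of 0.434 (RAD21, Del(CBS1-5)) to 1.0, and 8 CTCF and 0 RAD21 sites of the genome were called in Del(CBS1-5). The block changed no call near the genes. Depth was unknown, so at weak sites, such as those of Pax6 and Olig2, a missing peak and a shallower library cannot be told apart.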
